A study of Homo sapiens with 28 samples.

Results

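The 10 genes of the NRF2 redox program, GCLC, GCLM, NQO1, HMOX1, TXNRD1, SRXN1, OSGIN1, GSR, NFE2L2 and KEAP1, were taken by gene symbol from the 61815 human genes of the count table and described in all 8 groups of the series. GCLC was chosen by its measured response to CDK8/19 inhibitors without and with androgen in these libraries, so its values are a description and carry no test, and the question was whether the other 9 genes showed the same androgen-dependent response. RNA was measured in LNCaP, an androgen-responsive human prostate cancer line, kept for 72 h in charcoal-stripped serum, from which steroid hormones have been removed, before any treatment, so the vehicle groups are androgen-deprived cells. In the first experiment cells received 0.1% DMSO as vehicle, 1 µM Senexin B, 0.1 nM of the synthetic androgen R1881, or Senexin B with R1881, for 24 h (3 libraries per group). In the second they received vehicle, 500 nM SNX631, 1 nM R1881, or SNX631 with R1881, for 72 h (4 libraries per group). Both compounds inhibit CDK8 and its paralog CDK19, kinases that attach to the Mediator complex of transcription, and the genotype is given as wild type throughout. Doses were read from the labels, although the study's text states another one for Senexin B. Inhibitor, androgen dose, time and experiment differ together and cannot be told apart, so the experiments are set side by side and were not tested against each other. All libraries come from 1 line, and in bulk RNA a change in the share of cells that express a gene and a change in RNA per cell cannot be told apart.

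NRF2, the product of NFE2L2, is a transcription factor held at a low level by KEAP1, which directs it to degradation until oxidants or electrophiles modify KEAP1. NRF2 then binds antioxidant response elements near genes that make and recycle glutathione, restore thioredoxin and detoxify quinones. GCLC and GCLM encode the catalytic and the modifier subunit of glutamate-cysteine ligase, the rate-limiting enzyme of glutathione synthesis, and GSR encodes glutathione reductase, which returns oxidised glutathione to its reduced form.

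The promoters of the ligase subunits are shown because the subunits share an enzyme and a regulator and yet differed in these data. In GENCODE 29 on GRCh38, GCLC (ENSG00000001084.13) lies at chr6:53497341-53616970 and GCLM (ENSG00000023909.10) at chr1:93885205-93909456, both on the minus strand. The sequences are RefSeq promoters of GRCh38.p14, 300 bases from 250 before to 50 after the start of transcription, at chr6:53545052-53545351 for GCLC and chr1:93909381-93909680 for GCLM, written 5′ to 3′ along the gene, with any match to the core of the antioxidant response element in capitals.
GCLC: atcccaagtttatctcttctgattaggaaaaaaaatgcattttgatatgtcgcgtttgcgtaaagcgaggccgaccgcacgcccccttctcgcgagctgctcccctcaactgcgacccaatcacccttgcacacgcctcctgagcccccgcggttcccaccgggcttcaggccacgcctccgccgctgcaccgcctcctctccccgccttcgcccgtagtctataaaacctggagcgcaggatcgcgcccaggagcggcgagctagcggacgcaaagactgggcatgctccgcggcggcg
GCLM: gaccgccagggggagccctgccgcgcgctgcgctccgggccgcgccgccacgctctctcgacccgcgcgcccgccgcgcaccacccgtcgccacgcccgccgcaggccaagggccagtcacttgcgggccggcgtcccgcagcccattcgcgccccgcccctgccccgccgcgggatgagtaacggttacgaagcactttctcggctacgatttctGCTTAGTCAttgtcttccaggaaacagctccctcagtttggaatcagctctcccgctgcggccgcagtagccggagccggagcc
The core was searched as TGACNNNGC on both strands. The GCLM window held 1 match, which begins 34 bases before the start and reads on the opposite strand, and the GCLC window held none, which says only that these letters are not in this window. The GCLC window lies inside its GENCODE gene, away from the annotated gene start, while the GCLM window covers its own, so the windows are not alike. Of the 8 genes of the 10 with a RefSeq promoter, TXNRD1 also held 1 match and KEAP1 held 2, and over all 35116 promoters of this length 13.3% held at least 1. The repeat unit of androgen response elements, searched as AGAACA on both strands, was found in the TXNRD1 window only, away from its other match, and in 14.8% of all promoters.

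The library totals ranged from 9846595 to 33809419 counts, the highest in 24 h vehicle replicate 3 and the next 15248512. Levels are given as CPM (counts scaled to library size, with TMM factors within each experiment). KLK3, the gene of prostate-specific antigen and a classical androgen target, was 6.15 higher on the log2 scale with R1881 at 24 h and 6.57 at 72 h, as the labels of the androgen groups imply. The summed CPM of 8 luminal prostate markers was 3335 to 5506 in every library, while 5 immune markers summed to at most 1.59 and 5 endothelial markers to at most 4.45, with CD3E and CLDN5 at 0 in all libraries. Basal markers summed to between 16.1 and 34.2 CPM, nearly all from DST, with KRT5 at 0. Fibroblast markers summed to between 9.81 and 40.4 CPM, mostly from COL1A1 and COL3A1, and were lower with R1881 (28.9 to 32.3 with vehicle against 16.0 to 17.9 with R1881 at 24 h). They were also lower with the inhibitors, at 22.8 to 23.9 with Senexin B and 9.81 to 11.7 with both at 24 h, and at 32.6 to 35.5 with SNX631 against 36.3 to 40.4 with vehicle at 72 h. The luminal sum was lower with the inhibitors too, at 3554 to 3648 with Senexin B against 4501 to 4553 with vehicle at 24 h and at 3335 to 3405 with SNX631 against 3983 to 4013 at 72 h. The part of these shifts in the R1881 and inhibitor results was not tested.

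GCLC was higher with either inhibitor in androgen-deprived cells and overlapped its control when R1881 was present. At 24 h it stood at 91.3, 95.8 and 97.3 CPM in the vehicle libraries and at 178, 171 and 173 CPM with Senexin B. With R1881 it stood at 38.7, 40.1 and 42.1 CPM, and with R1881 and Senexin B at 39.0, 37.6 and 42.7 CPM. The order of levels was therefore Senexin B, vehicle and then both R1881 groups, which overlapped. At 72 h GCLC was at 44.1, 41.5, 43.0 and 42.5 CPM with vehicle and at 66.5, 70.7, 68.3 and 67.3 CPM with SNX631. It was at 39.0, 35.2, 36.4 and 38.5 CPM with R1881 and at 35.8, 36.1, 34.8 and 35.9 CPM with R1881 and SNX631. The SNX631 group again stood above all others, vehicle stood above R1881, and the R1881 groups overlapped.

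**Figure D1:**
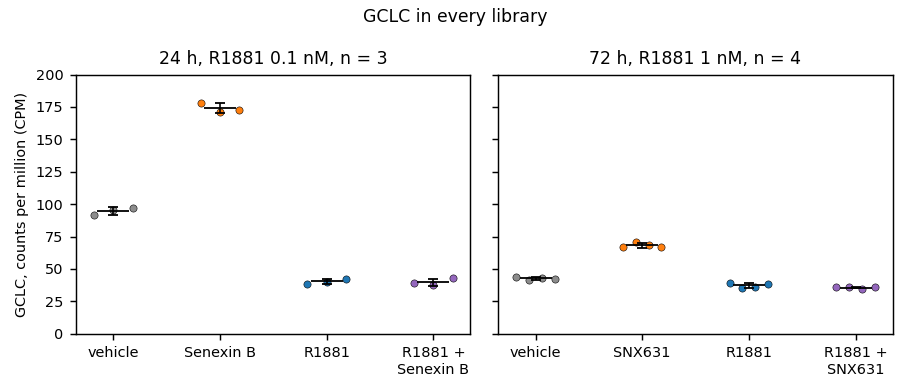
Level of GCLC (CPM, vertical axis from 0) in every library of the 8 groups, with the mean and SD as bars; n is 3 per group at 24 h and 4 at 72 h. The libraries with an inhibitor alone stand at 171 to 178 CPM at 24 h and 66.5 to 70.7 CPM at 72 h, above all other groups of their experiment.

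As fold changes, GCLC was 1.83-fold higher with Senexin B than with vehicle (log2 0.87, SE 0.039) and 1.6-fold higher with SNX631 (log2 0.68, SE 0.041). In the presence of R1881 the log2 difference was -0.015 (95% Wald interval -0.13 to 0.10) for Senexin B and -0.062 (-0.15 to 0.031) for SNX631. The interaction, which is the inhibitor effect with R1881 minus that without, was -0.88 (SE 0.071) at 24 h and -0.74 (SE 0.062) at 72 h. GCLC was chosen by these values, so their SE and intervals describe the fit and are not a test. R1881 itself went with a GCLC level 1.24 lower on the log2 scale at 24 h but only 0.20 lower at 72 h, where the vehicle level was 42.8 ± 1.08 CPM (SD, n = 4) against 94.8 ± 3.16 CPM (SD, n = 3) at 24 h. GCLC overlaps AL033397.1 on its own strand and AL033397.2 on the other, and the use of strand in counting is not given in the sources used here, so reads of these genes cannot be told apart from its own.

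Among the other 9 genes, none passed the limits of the study (FDR under 0.01 and a fold change over 1.5, called below) for the Senexin B or the SNX631 effect, without or with R1881, or for the interaction, by edgeR or by DESeq2. Of all genes tested, 3.79% were called for Senexin B without R1881, 3.12% with R1881 and 0.577% for the interaction at 24 h, and 4.77%, 4.12% and 1.19% for the same SNX631 comparisons at 72 h, so 0 of 9 is near the background. At an unadjusted p under 0.05, 3, 4 and 2 of the 9 genes differed at 24 h and 6, 4 and 3 at 72 h, in the same order. No share of all genes was taken at this limit, and it cannot be under the shares past the FDR limit given next. With the FDR limit alone (passed below), 3 of 9 genes passed for Senexin B without R1881 (25.1% of all genes), 2 with R1881 (22.7%) and 0 for the interaction (2.09%). At 72 h 3 passed for SNX631 without R1881 (26.9% of all genes), 2 with R1881 (33.1%) and 2 for the interaction (7.09%). The median size of the inhibitor effect over the 9 genes, 0.099 and 0.14 on the log2 scale without R1881 at 24 and 72 h, stood beside 0.15 and 0.14 over all genes.

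**Figure D2:**
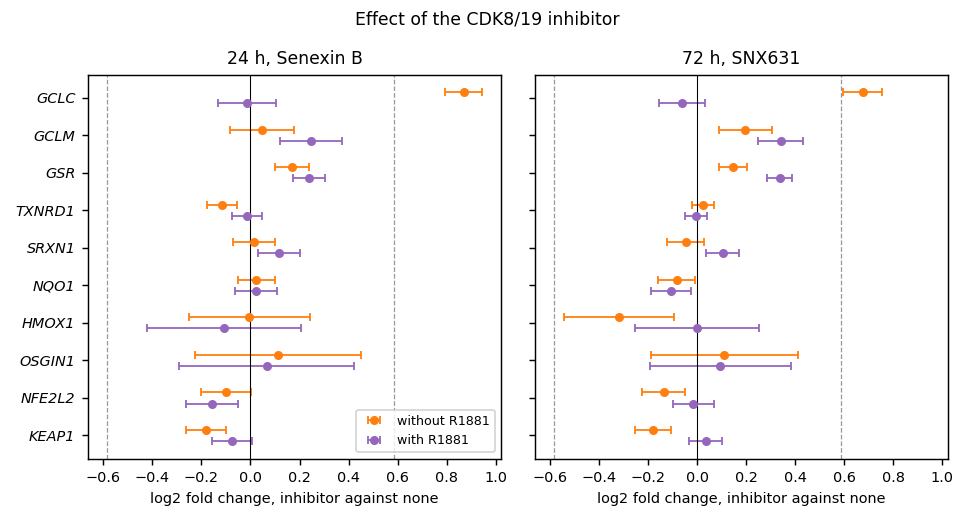
Log2 fold change with the inhibitor against none (horizontal axis) for the 10 genes, without R1881 (orange) and with R1881 (purple), with 95% Wald intervals and dashed lines at a 1.5-fold change. GCLC alone lies past a dashed line without R1881, at 0.87 and 0.68, and lies at the zero line with R1881. The other genes lie within both lines. GCLC was chosen by these values, so its intervals are a description and not a test.

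GCLM, the modifier subunit, did not follow the catalytic subunit. At 24 h GCLM was at 28.9, 27.0 and 27.8 CPM with vehicle and at 30.3, 29.4 and 26.6 CPM with Senexin B, and these groups overlapped. It was at 34.6, 36.6 and 41.2 CPM with R1881 and at 43.6, 42.9 and 46.8 CPM with both, without overlap. In the 72 h groups it was at 28.5, 26.4, 26.8 and 26.8 CPM with vehicle and at 31.3, 29.9, 29.5 and 33.6 CPM with SNX631. With R1881 it was at 40.2, 40.5, 41.4 and 37.1 CPM, and with R1881 and SNX631 at 50.1, 49.3, 50.5 and 51.4 CPM, so every R1881 library stood above every library without R1881 and every combined library above every R1881 library. With R1881 present, GCLM rose 1.19-fold with Senexin B (log2 0.25, SE 0.064, adjusted p = 0.00309) and 1.27-fold with SNX631 (log2 0.34, SE 0.046, adjusted p = 1.1e-07). The Senexin B effect does not pass by DESeq2 (log2 0.24), with library totals (0.21) or without R1881 replicate 1 (0.19), R1881 replicate 2 (0.22) or combined replicate 3 (0.21) of the 24 h experiment. Without R1881 it rose with SNX631 (log2 0.20, SE 0.054, adjusted p = 0.00372), which does not pass by DESeq2 (0.20), with library totals (0.17) or without SNX631 replicate 1 or 4 or vehicle replicate 2, 3 or 4 (0.16 to 0.19), and gave 0.047 with Senexin B (interval -0.082 to 0.18, adjusted p = 0.621). The interaction of GCLM was 0.20 at 24 h (adjusted p = 0.26) and 0.14 at 72 h (adjusted p = 0.204), opposite in sign to that of GCLC and not past the limit.

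Because the subunits work as a pair, their levels were also set against each other per kilobase of exons (8.646 kb for GCLC and 5.42 kb for GCLM in GENCODE 29, which may not be the annotation used for counting). The ratio of GCLC to GCLM in CPM per kilobase was 2.13 ± 0.135 (SD, n = 3) with vehicle, 3.81 ± 0.236 with Senexin B, 0.675 ± 0.0314 with R1881 and 0.561 ± 0.0107 with both at 24 h. At 72 h it was 0.99 ± 0.0146 (SD, n = 4) with vehicle, 1.38 ± 0.106 with SNX631, 0.589 ± 0.0493 with R1881 and 0.444 ± 0.0119 with both. On this scale GCLC stood above GCLM in the 24 h groups without R1881 and with SNX631 alone, and below it in all 4 groups with R1881. The length is that of all annotated exons joined, not of a transcript. Which subunit was the more abundant transcript therefore cannot be read from the ratio. In plain CPM, GCLC stood above GCLM with R1881 at 24 h (40.3 against 37.5) and below it in the other groups with R1881. The ratio contains GCLC and was therefore not tested.

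GSR rose with R1881 and, less, with both inhibitors. At 24 h GSR was at 160, 156 and 165 CPM with vehicle, 183, 184 and 175 CPM with Senexin B, 326, 335 and 330 CPM with R1881 and 403, 384 and 381 CPM with both. After 72 h GSR was at 149, 147, 144 and 149 CPM with vehicle and 166, 161, 157 and 169 CPM with SNX631. It was at 309, 297, 299 and 316 CPM with R1881 and at 383, 383, 382 and 394 CPM with both. No neighbouring groups overlapped in either experiment. Senexin B raised GSR by 0.17 on the log2 scale without R1881 (SE 0.035, adjusted p = 0.000325) and by 0.24 with R1881 (SE 0.033, adjusted p = 1e-06). SNX631 raised it by 0.15 without R1881 (SE 0.029, adjusted p = 0.000108) and by 0.34 with R1881 (SE 0.025, adjusted p = 9.44e-14). The difference between these effects was 0.19 at 72 h (SE 0.039, adjusted p = 0.000621) and 0.069 at 24 h (interval -0.026 to 0.16, adjusted p = 0.519). GSR was thus higher with the inhibitor whether or not R1881 was present, and at 72 h the effect was the larger with R1881, where GCLC showed none.

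TXNRD1, the cytosolic thioredoxin reductase (chr12:104215779-104350305, plus strand), was the most abundant of the 10 per kilobase in vehicle cells and moved little. It was at 332, 345 and 333 CPM with vehicle and 305, 308 and 319 CPM with Senexin B, a fall of log2 -0.12 (SE 0.031, adjusted p = 0.00415). It does not pass when either of Senexin B replicates 1 and 2 or any of the 3 vehicle libraries is left out, with values from -0.12 to -0.092. With R1881 present at 24 h, TXNRD1 was at 401, 397 and 405 CPM and with Senexin B added at 395, 407 and 390 CPM (log2 -0.013, interval -0.075 to 0.049). At 72 h its 4 groups lay between 363 and 409 CPM, and the SNX631 effects were 0.023 (interval -0.021 to 0.068) without and -0.0052 (-0.049 to 0.039) with R1881.

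SRXN1, sulfiredoxin, which repairs overoxidised peroxiredoxins (chr20:646615-653370, minus strand), was at 60.5, 65.3 and 65.3 CPM with vehicle and 65.1, 65.4 and 63.7 CPM with Senexin B. It was at 80.7, 83.1 and 79.7 CPM with R1881 and 90.6, 86.7 and 86.7 CPM with both. At 72 h it was at 59.9 to 64.4 CPM with vehicle, 58.7 to 63.5 with SNX631, 79.9 to 85.5 with R1881 and 87.2 to 90.6 with both. The combined groups lay just above the R1881 groups without overlap, yet the inhibitor effects with R1881 (log2 0.12, adjusted p = 0.0376, and 0.10, adjusted p = 0.0132) did not pass. The SNX631 effect passed in 1 fit of all 28 libraries (0.12) and with no low count filter (0.12). Without R1881 they were 0.013 (interval -0.073 to 0.098) and -0.046 (-0.12 to 0.030).

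The classical stress targets showed no inhibitor effect that passed in the main fits. NQO1, a quinone reductase (chr16:69706996-69726951, minus strand), was at 118, 126 and 124 CPM with vehicle and 127, 122 and 127 CPM with Senexin B. It was at 86.1, 90.5 and 91.9 CPM with R1881 and 87.1, 92.6 and 93.1 CPM with both. The inhibitor groups overlapped their controls, and the Senexin B effect was 0.024 (interval -0.050 to 0.098) without and 0.022 (-0.064 to 0.11) with R1881. At 72 h NQO1 was at 107, 114, 107 and 114 CPM with vehicle, 99.5, 106, 98.8 and 115 CPM with SNX631, 82.3, 83.3, 86.3 and 83.0 CPM with R1881 and 77.4, 77.2, 76.4 and 80.4 CPM with both. The SNX631 effect was -0.083 without R1881 (adjusted p = 0.083) and -0.11 with R1881 (adjusted p = 0.0364). The first passed without SNX631 replicate 4 (-0.13) and the second under library totals (-0.14).

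HMOX1, haem oxygenase 1 (chr22:35380361-35394214, plus strand), and OSGIN1, an oxidative stress-induced growth inhibitor (chr16:83948282-83966332, plus strand), were low and therefore imprecise. HMOX1 held 54 to 251 counts per library and lay between 4.53 and 8.70 CPM in all 28 libraries. Its SNX631 effect without R1881 was -0.32 (interval -0.54 to -0.093, adjusted p = 0.026; it passed without SNX631 replicate 4, at -0.41), and that of Senexin B was -0.0051 (-0.25 to 0.24). OSGIN1 held 32 to 116 counts per library and lay between 2.50 and 5.33 CPM. Its 4 inhibitor effects lay between 0.066 and 0.11, with intervals that reached from -0.29 to 0.45. A 1.5-fold change, 0.58 on the log2 scale, lies outside these intervals.

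The regulators moved slightly. KEAP1 (chr19:10486120-10503741, minus strand) fell with either inhibitor in androgen-deprived cells. It was at 113, 115 and 114 CPM with vehicle and 96.9, 106 and 99.1 CPM with Senexin B (log2 -0.18, SE 0.041, adjusted p = 0.000747), which does not pass without Senexin B replicate 1 (-0.15). After 72 h KEAP1 was at 101, 110, 112 and 108 CPM with vehicle and 88.0, 101, 94.5 and 97.3 CPM with SNX631 (log2 -0.18, SE 0.037, adjusted p = 0.000174). With R1881 present the effects were -0.075 (interval -0.16 to 0.0082, adjusted p = 0.183) and 0.035 (-0.032 to 0.10, adjusted p = 0.438). The interaction passed at 72 h (0.21, SE 0.051, adjusted p = 0.00288), though not without SNX631 replicate 1 (0.18), and was 0.11 at 24 h (adjusted p = 0.376).

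NFE2L2 (chr2:177227595-177392697, minus strand) was at 60.8, 51.7 and 53.3 CPM with vehicle, 52.0, 49.1 and 51.7 CPM with Senexin B, 67.4, 69.6 and 68.3 CPM with R1881 and 58.6, 63.4 and 62.3 CPM with both. In the 72 h groups it lay at 61.2 to 67.2 CPM with vehicle, 56.1 to 63.7 with SNX631, 70.3 to 78.9 with R1881 and 68.5 to 75.3 with both. Its inhibitor effects ranged from -0.16 (Senexin B with R1881, adjusted p = 0.0227) to -0.015 (SNX631 with R1881, adjusted p = 0.808), and none passed. NFE2L2 did pass for Senexin B with R1881 under library totals (-0.19), and for SNX631 alone under library totals (-0.16) and without SNX631 replicate 1 (-0.18) or vehicle replicate 4 (-0.16). NFE2L2 overlaps AGPS and other genes on the opposite strand, so its counts are uncertain in the same way as those of GCLC. The same holds for TXNRD1, which overlaps EID3 and RPL18AP3 on its own strand and AC089983.1 on the other, and for NQO1, SRXN1, OSGIN1 and KEAP1, each of which overlaps 1 other gene. NRF2 is regulated mainly as a protein, which was not measured.

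**Figure D3:**
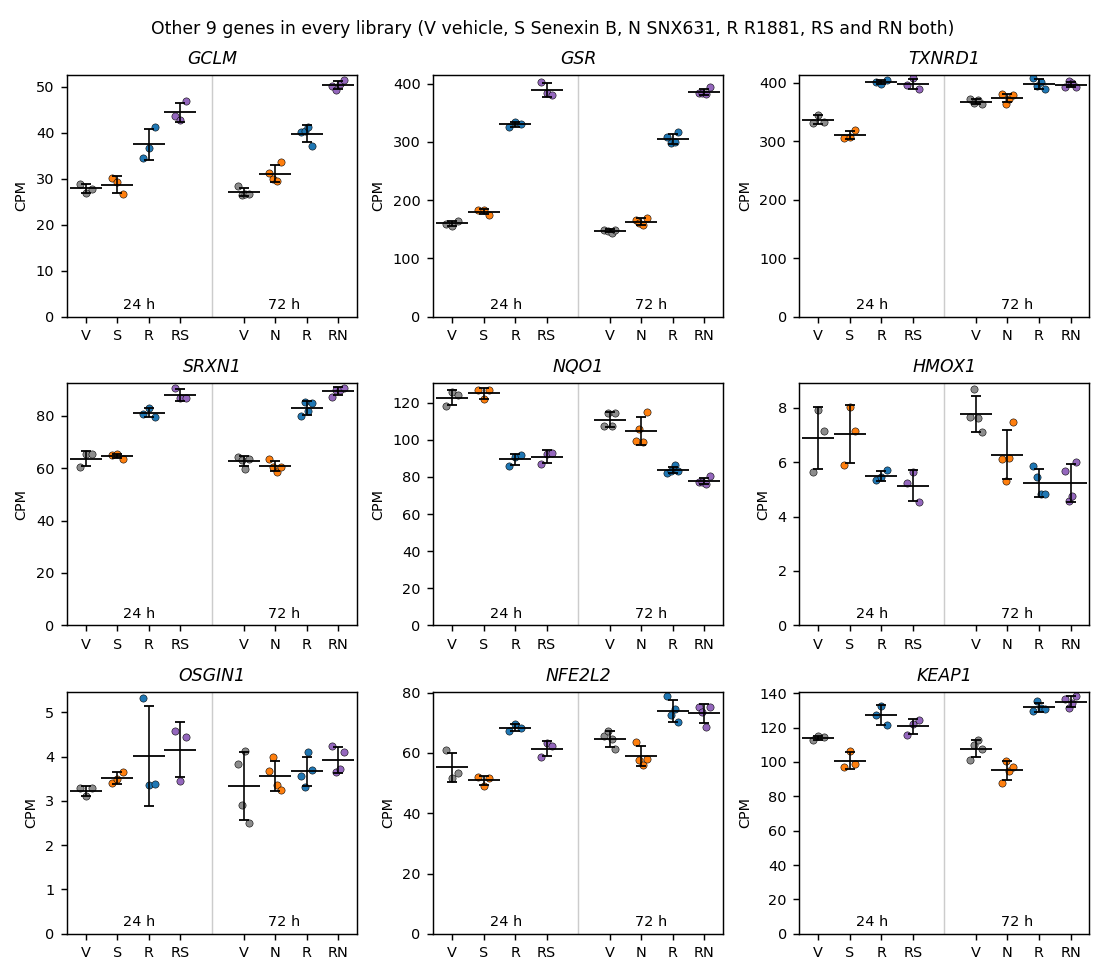
Level (CPM, each axis from 0) of the other 9 genes in every library, with mean and SD bars, n of 3 per group at 24 h (left in each panel) and 4 at 72 h (right). GSR, GCLM and SRXN1 are higher with R1881 and NQO1 is lower, and no gene shows the high inhibitor-only group of GCLC.

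More of the other 9 genes passed for R1881 than for the inhibitors, as also held over all genes, and most of these were higher, while GCLC was lower. Without inhibitor, 7 of the 9 genes passed at 24 h (48.4% of all genes tested) and 8 at 72 h (52.2%), of which 6 were higher in each experiment. The median log2 effect over the 9 genes was 0.30 at 24 h and 0.19 at 72 h, beside -0.016 and -0.014 over all genes. Only GSR was called, against 19% and 19.8% of all genes. HMOX1 (-0.57) and GCLM (0.55) lay just under the fold limit at 72 h, where the count was 2 in 6 of the 8 fits with 1 library left out and with library totals. GSR rose 2.06-fold at 24 h (log2 1.04, SE 0.034, adjusted p = 1.28e-22) and 2.07-fold at 72 h (log2 1.05, SE 0.028, adjusted p = 9.25e-29). GCLM rose by 0.43 and 0.55, SRXN1 by 0.34 and 0.41, NFE2L2 by 0.33 and 0.19, TXNRD1 by 0.25 and 0.12, and KEAP1 by 0.15 and 0.29 on the log2 scale, all past the FDR limit. Scaled by library totals, KEAP1 at 24 h (0.076) and NFE2L2 (0.091) and TXNRD1 (0.013) at 72 h did not pass. NQO1 fell by 0.46 at 24 h (SE 0.041, adjusted p = 1.57e-11) and by 0.41 at 72 h (SE 0.040, adjusted p = 2.61e-11), with no overlap of groups. HMOX1 fell by 0.57 at 72 h (SE 0.12, adjusted p = 8.89e-05) and gave -0.35 at 24 h (adjusted p = 0.0284). OSGIN1 gave 0.30 (adjusted p = 0.14) and 0.15 (adjusted p = 0.423). The R1881 group of OSGIN1 at 24 h held 1 high library (5.33 against 3.35 and 3.37 CPM).

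With inhibitor present, the R1881 comparison takes the combined group against the inhibitor alone. Here 8 of 9 genes passed with Senexin B (47.5% of all genes) and 7 with SNX631 (57.3%); TXNRD1 was among them at 0.087 with SNX631 and turned to -0.021 under library totals. GSR and GCLM were called in both experiments (18.9% and 22% of all genes), GSR at 1.11 and 1.24 and GCLM at 0.63 (SE 0.066, adjusted p = 6.63e-10) and 0.70 (SE 0.048, adjusted p = 7.21e-16). GCLM lay just over the 1.5-fold limit, and at 24 h it is not called without Senexin B replicate 3. GCLC was 2.13 lower on the log2 scale with R1881 and Senexin B than with Senexin B and 0.94 lower for SNX631, so the subunits stood furthest apart in this comparison. NQO1 fell by 0.46 and 0.43, and HMOX1 by 0.46 with Senexin B (adjusted p = 0.00923), which does not pass by DESeq2 or without combined replicate 1 or 3 or Senexin B replicate 2 or 3. The comparisons without and with inhibitor use different libraries, but each shares a group with an inhibitor comparison above.

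**Figure D4:**
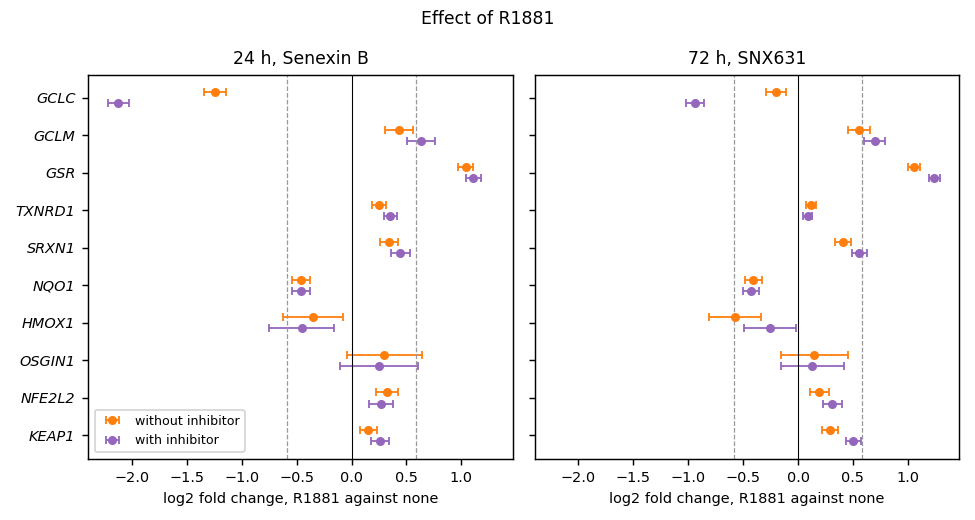
Log2 fold change with R1881 against none (horizontal axis) for the 10 genes, without inhibitor (orange) and with it (purple), with 95% Wald intervals and dashed lines at a 1.5-fold change. GCLC lies far to the left at 24 h, at -1.24 and -2.13, GSR lies to the right at 1.04 to 1.24, and NQO1 and HMOX1 lie to the left of zero. The intervals of GCLC are a description and not a test.

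A further 98 redox genes in 9 lists, written with results of these data known, were read in the same fits: 83 were tested at 24 h and 82 at 72 h. None was called for the interaction at either time by edgeR or DESeq2. Of all genes, 0.577% were called for it at 24 h and 1.19% at 72 h. The FDR limit was passed by 3 and 7 of the listed genes, and by 2.09% and 7.09% of all genes. These counts were near the background. An unadjusted p under 0.05 was seen for 16 listed genes at 24 h and 29 at 72 h, with no share of all genes taken. For the inhibitor effect, 7 were called at 24 h without R1881 (4 higher, 3 lower) and 3 with it (all lower), against 2 (1 higher, 1 lower) and 3 (2 higher, 1 lower) at 72 h. Of all genes, 3.79% and 3.12% were called in the 24 h comparisons and 4.77% and 4.12% in those at 72 h, so the 72 h counts of the lists were at or under the background. The test against a 1.5-fold change left 2, 1, 1 and 0 of these calls, and an FDR under 0.05 with no fold limit gave 45, 36, 40 and 40, and 6 and 14 for the interactions. No share of all genes was taken at these other limits. Without combined replicate 3 the count with R1881 at 72 h was 6, and the 24 h interaction held 1 call without R1881 replicate 3, Senexin B replicate 2 or vehicle replicate 3. All called genes belonged to the glutathione supply, thioredoxin and peroxiredoxin, and superoxide and catalase lists. No gene was called for the inhibitor effect in the lists of NRF2 regulators and partners, glutathione use, NADPH supply, quinone and carbonyl detoxification, haem and iron, or conjugate export. The median log2 effect over the tested genes lay between 0.014 and 0.042 in these 4 comparisons, beside -0.0052 to 0.010 over all genes.

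The glutathione supply list, which holds the cystine importer and enzymes around the ligase, was the only list with more than 1 call in an inhibitor comparison. Of its 9 genes, 5 were called with Senexin B without R1881 and 1 with R1881. With SNX631 the calls were 1 without R1881 and 2 with it. At 24 h without R1881, Senexin B raised SLC7A11, the cystine importer, by 0.70 (SE 0.063, adjusted p = 2.04e-10) and its partner chain SLC3A2 by 0.62 (SE 0.042, adjusted p = 2.84e-13). It also raised the glutathione-degrading enzymes CHAC1 by 1.32 (SE 0.17, adjusted p = 2.93e-07) and CHAC2 by 0.63 (SE 0.082, adjusted p = 3.1e-07), and lowered GGT1, which breaks down extracellular glutathione, by log2 -0.67 (SE 0.11, adjusted p = 5.65e-06). The 24 h interaction of CHAC1 was near that of GCLC in size but did not pass. Of the listed genes whose interaction passed at 24 h, SLC7A11 had the largest in size, -0.55 (SE 0.086, adjusted p = 6.78e-05). Its effect with R1881 was 0.15 (adjusted p = 0.0419). Its pattern differed from that of GCLC otherwise: it was higher with R1881 (72.4 ± 6.88 CPM against 34.9 ± 2.16 CPM with vehicle, SD, n = 3), and SNX631 gave 0.077 without R1881 (adjusted p = 0.419) and 0.35 with it (adjusted p = 7e-06). CHAC2 was called with SNX631 as well, at 0.73 without R1881, where it was the only call of this list, and 0.65 with it. With R1881 present, CHAC1 was called with SNX631 (0.94, SE 0.20, adjusted p = 0.000121), although its libraries with and without SNX631 overlapped. It gave 0.44 with Senexin B (adjusted p = 0.0786), and GGT1 was called with Senexin B (-0.65). With SNX631 and R1881, GGT1 gave -0.16 (adjusted p = 0.133) and SLC3A2 0.36 (adjusted p = 1.37e-10), and neither was called.

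TXNIP, the inhibitor protein of thioredoxin, fell with both inhibitors whether or not R1881 was present. It fell by 0.81 (SE 0.045) and 0.82 (SE 0.054) with Senexin B without and with R1881, and by 0.83 (SE 0.032) and 0.63 (SE 0.037) with SNX631, with adjusted p of at most 1.68e-13. SOD3, the extracellular superoxide dismutase, fell at 24 h by 0.79 without and 0.62 with R1881. At 72 h SNX631 gave log2 -0.55 with R1881 present (SE 0.12, adjusted p = 0.000137), past the FDR limit but under the fold limit.

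**Figure D5:**
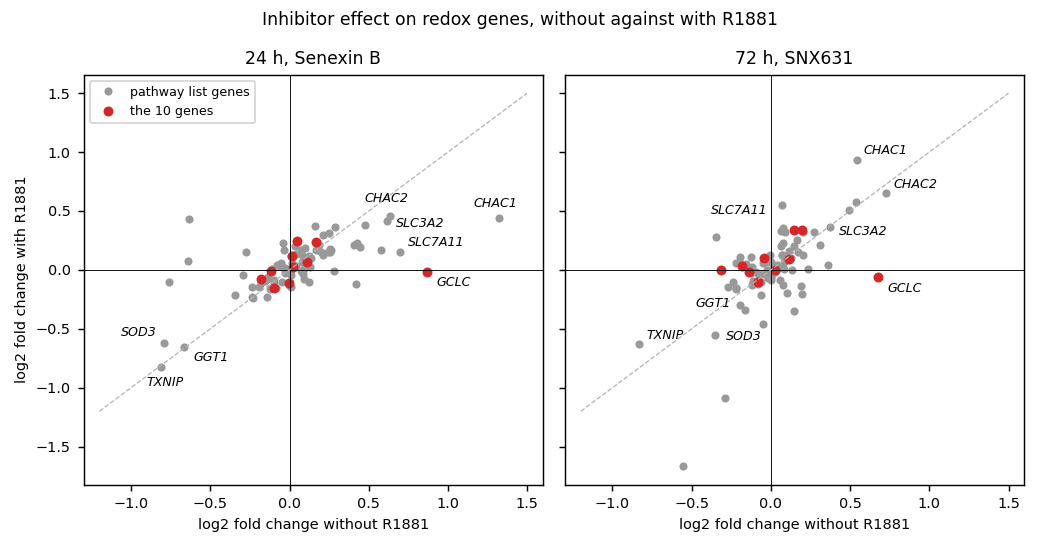
Log2 fold change with the inhibitor in the absence (horizontal axis) and the presence (vertical axis) of R1881 for the 10 genes (red) and the tested genes of the 9 redox lists (grey); the dashed line marks equal effects. GCLC lies far to the right at a vertical value near zero in both panels, while TXNIP (-0.81 and -0.82 at 24 h) and CHAC2 (0.73 and 0.65 at 72 h) lie near the dashed line.

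Of the listed genes, R1881 alone gave 15 calls of 83 at 24 h and 15 of 82 at 72 h, near the 19% and 19.8% of all genes. The largest that were called in both experiments were the exporters ABCC4 (log2 2.35 and 2.38) and ABCC1 (0.91 and 1.05), the NADPH-producing IDH1 (1.64 and 1.57), GLRX2, a mitochondrial glutaredoxin (1.20 and 1.04), FECH, which completes haem synthesis (0.95 and 1.02), and PRDX6, a peroxiredoxin (0.96 and 0.91). SLC40A1, the iron exporter, was lower (-0.87 and -1.08), a call lost at 24 h by DESeq2 and without R1881 replicate 3, vehicle replicate 2 or vehicle replicate 3. ABCG2, another exporter, fell as well, from 2.43 ± 0.705 CPM (SD, n = 4) with vehicle to 1 to 3 counts per library with R1881 at 72 h, which gives no exact fold.

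Over the 28 libraries, centred on the mean of each experiment, the genes whose log2 CPM followed GCLC most closely among 15680 genes were DDX1 (r = 0.96), COBLL1 (0.95), MORC3 (0.95), EIF1B (0.95) and RNF6 (0.94). EIF1B had the same order of groups at 24 h, with 71.0 ± 2.42 CPM with vehicle, 133 ± 3.78 with Senexin B, 40.1 ± 3.52 with R1881 and 43.9 ± 2.38 with both (SD, n = 3), whereas DDX1 followed GCLC with far smaller changes (204, 214, 177 and 176 CPM). At 72 h EIF1B was at 55.8 ± 1.79 CPM with vehicle and 67.3 ± 5.82 with SNX631 (SD, n = 4). The 72 h interactions were -0.52 for COBLL1, -0.25 for EIF1B, -0.088 for MORC3, -0.071 for DDX1 and -0.035 for RNF6, against -0.74 for GCLC. The r of 0.94 to 0.96 belongs to genes picked as the highest of 15680, so nearly every gene falls under it, as did the other 9. NQO1 had r = 0.78, which ranked 529 among the 15680 genes, and HMOX1 had 0.50. The others were negative, from -0.34 for OSGIN1 to -0.91 for TXNRD1. These r values share libraries, depth and the large R1881 difference among groups, and are a description.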

How the data were processed

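RNA-seq libraries from 28 LNCaP cultures, called biological replicates in the labels, were made from total RNA with a directional kit. The authors deposited expected counts per gene, unscaled, in which shared reads are split into fractions. Per the labels, the submitters' processing notes name FastQC, cutadapt 2.8, STAR 2.7.2b and featureCounts of Subread 2.0.3, with builds GRCh38.p13 and GRCm39. Their settings, the annotation release and the use of strand are not given in the sources used here.

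Counts were rounded, and 2 non-human entries, at 0 throughout, were left out. The 4 groups of an experiment shared a fit by edgeR 4.0.16 in R 4.3.3 (TMM, filterByExpr with a minimum count of 10 and total of 15, quasi-likelihood test), with 15948 genes tested at 24 h and 16074 at 72 h. Adjusted p is the Benjamini-Hochberg FDR over these. All 10 genes passed the filter. SE and intervals are Wald values of the same fit. Errors after ± are SD. Replicates differed beyond sampling noise in all 36 within-group pairs, by a chi-square of 1.20 to 2.48 per degree of freedom over the genes. The spread between replicates fitted by edgeR was a coefficient of variation of 2.72% at 24 h and 2.38% at 72 h.

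The members, the redox lists and the marker lists were chosen with earlier results of these data known. A marker gene is not reported here. Named list genes had the same direction of call at 24 and 72 h, at most 8 per comparison by size; SLC7A11, SLC3A2, CHAC1, GGT1 and SOD3 were named after their values were seen. Alternatives were other scalings, DESeq2 1.42.0, other filters and limits, a replicate block, 1 fit of all libraries and leaving out each library; those for the redox lists were added after seeing the data. The fits were tested on simulated counts. Positions are GENCODE 29. Figures used matplotlib 3.10.9.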

Additional observations from a re-analysis of the deposited data

Results flagged for a closer look

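In the group with R1881 and SNX631 at 72 h, GSR was at 394 CPM in replicate 4, apart from the 382 to 383 CPM of the other libraries, a gap that exceeded Dixon's 95% critical value for 4 samples. Of 40 groups of 4 values examined this was 1 flag, and chance flags about 1 in 20.

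The inhibitor effect differed between cells without and with R1881 by the interaction test of edgeR (FDR under 0.01) for GSR (0.19) and KEAP1 (0.21) at 72 h, as given in the report. Among the genes of the redox lists it was negative at 24 h for SLC7A11 (-0.55), for AKR1A1 (-0.23), an aldehyde reductase, and for ABCC4 (-0.19). At 72 h it was negative for ABCC1 (-0.40) and ABCC4 (-0.31), for GSTA4 (-0.33), a glutathione transferase, and for SQSTM1 (-0.29), an autophagy adaptor that binds KEAP1. It was positive at 72 h for SOD2 (0.27), the mitochondrial superoxide dismutase, GSTM3 (0.23) and TXNIP (0.20). ABCC4 is the gene of these lists whose interaction passed in both experiments, and no listed gene that passed exceeded a 1.5-fold difference. The interaction of CHAC1 at 24 h was -0.88 (adjusted p = 0.0456).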

How the results depend on the processing

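The count of 0 called genes among the other 9 held in each inhibitor and interaction comparison under other scalings, DESeq2, other filters, the replicate block, 1 fit of all libraries, the test against a 1.5-fold change and every left-out library. With an FDR under 0.05 and no fold limit, counts became 4 and 3 of 9 for Senexin B with and without R1881, 4 and 5 for SNX631, 2 for the 72 h interaction, 8 for R1881 at either time, 8 for R1881 with Senexin B and 7 with SNX631. No share of all genes was taken at this limit. R1881 with Senexin B gave 1 call with library totals or the test against 1.5-fold (main 2), and R1881 at 72 h gave 2 with library totals (main 1). Genes past FDR 0.01 by DESeq2 numbered 1 for Senexin B with R1881 (main 2), 2 for SNX631 without R1881 (main 3) and 7 for R1881 with Senexin B (main 8).

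Leaving out 1 library moved the calls to between 1 and 2 for R1881 with Senexin B and for R1881 at 72 h. It moved the genes past FDR 0.01 to between 1 and 2 for the 72 h interaction and Senexin B with R1881. For Senexin B without R1881 it moved them to between 1 and 3 (1 without Senexin B replicate 1). For SNX631 without R1881 it moved them to between 2 and 4 (main 3), and for R1881 with Senexin B to between 7 and 8 (main 8). It also turned the sign of small effects: GCLC with Senexin B and R1881 (-0.072 to 0.022, not tested) and, none past the limit, HMOX1 with Senexin B alone (-0.1 to 0.11) and SNX631 with R1881 (-0.072 to 0.063); NFE2L2 with SNX631 and R1881 (-0.038 to 0.015); the NQO1 interaction (-0.043 to 0.014 at 24 h, -0.048 to 0.027 at 72 h) and NQO1 with Senexin B and R1881 (-0.013 to 0.044); the OSGIN1 interaction (-0.18 to 0.19 and -0.13 to 0.10), OSGIN1 with Senexin B and R1881 (-0.056 to 0.31) and with SNX631 alone (-0.0075 to 0.23); SRXN1 with Senexin B alone (-0.0078 to 0.036); and TXNRD1 with R1881 and Senexin B (-0.0302 to 0.0013) or SNX631 (-0.015 to 0.0086).

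Scaling by library totals turned HMOX1 with SNX631 and R1881 (-0.031), NQO1 with Senexin B with and without R1881 (-0.014 and -0.015) and its 24 h interaction (0.00067), SRXN1 with Senexin B alone (-0.026), TXNRD1 with SNX631 alone (-0.0037) and TXNRD1 for R1881 with SNX631 (-0.021). The last was past the limit in the main fit. Library totals shifted the median of all genes by -0.10 for R1881 at 72 h and by -0.11 for R1881 with SNX631. With no low count filter NFE2L2 (0.0036) and TXNRD1 (0.014) with SNX631 and R1881 and the 24 h NQO1 interaction (0.0023) turned sign, as did TXNRD1 with SNX631 and R1881 in 1 fit of all libraries (0.0061) and HMOX1 with Senexin B alone by DESeq2 (0.014). The cause was not tested.

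No shared effect of replicate number was found: no same-numbered pair of groups had a correlation of deviations above 0.1 (highest 0.068). Whether cultures of the same number were matched cannot be told from this. The replicate block turned HMOX1 with Senexin B alone (0.0081) and left every count of called members as it was. GCLC ranged from 0.83 to 0.89 and from 0.65 to 0.69 for the inhibitors without R1881 and from -0.94 to -0.85 and from -0.76 to -0.71 for the interactions over all alternatives.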
